A study of Mus musculus with 20 samples.

Results

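Conjugating enzymes make drugs, food toxins, bile pigments and hormones soluble so that the body can be rid of them. The 5 enzyme classes of the mouse colon described here are cytosolic glutathione S-transferases (genes of the Gsta, Gstk, Gstm, Gsto, Gstp, Gstt and Gstz families), microsomal glutathione S-transferases (Mgst), UDP-glucuronosyltransferases (Ugt), sulfotransferases (Sult) and carboxylesterases (Ces). The class called cytosolic was set by symbol and includes Gstk1, whose enzyme is mitochondrial and peroxisomal. A probe set, the group of array probes that reads 1 transcript, was a member when its single annotated gene symbol began with one of these stems. That rule used names and no measured value. It found 72 probe sets, of which 69 had values. Each of the 69 stood for a different gene, out of 21423 genes with a value in all: 17 cytosolic and 3 microsomal glutathione transferases, 11 glucuronosyltransferases, 19 sulfotransferases and 19 carboxylesterases. The probe sets of Gstp2, Sult2a1 and Sult2a2 had no value on any array.

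RNA was taken from the middle part of the colon, with 1 array per mouse. The mice were females of the C57BL/6JOlaHsd strain, aged about 11 weeks, and the labels name no altered gene. The 5 groups held 4 mice each. Untreated healthy mice were given saline, and probiotic healthy mice a mixture of the bacterial strains L930BB and IM386 by gavage. Untreated colitis mice were given saline and drank 3% dextran sodium sulphate (DSS) for 5 days, which damages the lining of the colon and brings on inflammation. Probiotic colitis mice had the bacteria before and along with DSS. Cyclosporine colitis mice had DSS and cyclosporine A, an immunosuppressant that acts on T cells, as a daily oral dose of 25 mg/kg from day 1 to 15. Cyclosporine was given in a methocel solution, the other treatments in saline, so drug and vehicle cannot be told apart. The day on which tissue was taken is not in the labels. No healthy group had cyclosporine, and the labels do not say which mice shared a cage. The labels give 5 mice per cage and do not say whether a cage held mice of 1 group. The p-values measure the spread between these mice. If each group had its own cage, cage and treatment cannot be told apart.

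Detoxification by conjugation works in steps. Carboxylesterases split ester and amide bonds of drugs and lipids and so uncover groups that can be conjugated. Transferases then join the compound to glutathione, to glucuronic acid taken from UDP-glucuronate, or to sulphate taken from the donor PAPS, and pumps of the ABC family carry the product out of the cell. The liver is the best known site, but surface cells of the colon hold many of these enzymes and meet bacterial products and food toxins first. Sult1a1 joins sulphate to phenols, Gstm1 and its relatives and Gstp1 join glutathione to reactive electrophiles, and Ces1 and Ces2 enzymes hydrolyse drugs and acylglycerols.

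Levels below are log2 array signals as the authors deposited them, and a difference of 1 is a doubling. A gene was tested when its signal was above 5.30, the 25th percentile of all values, on at least 4 arrays. Of the 69 members, 46 were tested: all 17 cytosolic and all 3 microsomal glutathione transferases, 5 glucuronosyltransferases, 8 sulfotransferases and 13 carboxylesterases. Of the 46, 37 were above that level on every array and 9 on fewer: Gstm6, Gstt4, Ugt2b1, Ugt3a1, Sult2a4, Sult4a1, Ces1a, Ces1d and Ces2f. Ugt2b1 was above it on 10 arrays, mostly of healthy and cyclosporine mice. Its means in untreated colitis (5.03) and probiotic colitis (5.07) lay below it. The other 23 were dim, with mean signals from 2.56 to 5.02. Among them were Ugt2a3, Ugt2b5, Ugt2b36, Ugt2b37, Ugt2b38 and Ugt3a2, 11 sulfotransferases that include the oestrogen sulfotransferase Sult1e1, and 6 carboxylesterases. Signals differ between probes for reasons other than RNA amount, so no gene's level was set against another gene's. Members of the Gstm, Gstt, Ces1, Ces2 and Ugt2b families resemble each other in sequence, and how far a probe set reads its neighbour's transcript was not tested.

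Array medians lay between 6.22 and 6.29, and any pair of arrays correlated at 0.965 to 0.994. The arrays of mouse 2 (untreated healthy), mouse 6 (untreated colitis) and mouse 8 (probiotic colitis) were treated as standing apart. The values behind that choice are not given here. Counts without these 3 arrays are given with each comparison. Colonocyte markers were well above the filter level: the mean level of 15 such genes was 11.54 to 11.89 in untreated healthy mice. A gene was called changed at an adjusted p under 0.05, from limma's moderated test over all 16739 genes with Benjamini-Hochberg adjustment. Changes are log2 changes ± the standard error of the fit (SE, n = 4 mice per group).

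Many of the tested members were lower in colitis. Against untreated healthy mice, 23 of 46 fell and 1 rose in untreated colitis, which is 52.2% called, where 26.1% of all 16739 genes were called (11.7% up and 14.4% down). The median change was -0.41 over the 46 members and -0.03 over all genes tested. The cytosolic glutathione transferases had 11 of 17 lower and none higher, with a median of -0.54. The microsomal ones had 2 of 3 lower (median -0.48), the glucuronosyltransferases 2 of 5 (-0.41), the sulfotransferases 3 of 8 (-0.26) and the carboxylesterases 5 of 13 lower and 1 higher (-0.23). For 24 members the values of the untreated healthy and untreated colitis mice did not overlap, against 24.6% of all genes. Without the 3 arrays named above, 24 members fell and 1 rose. In whole tissue, fewer cells of a type and less RNA per cell cannot be told apart.

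**Figure D1:**
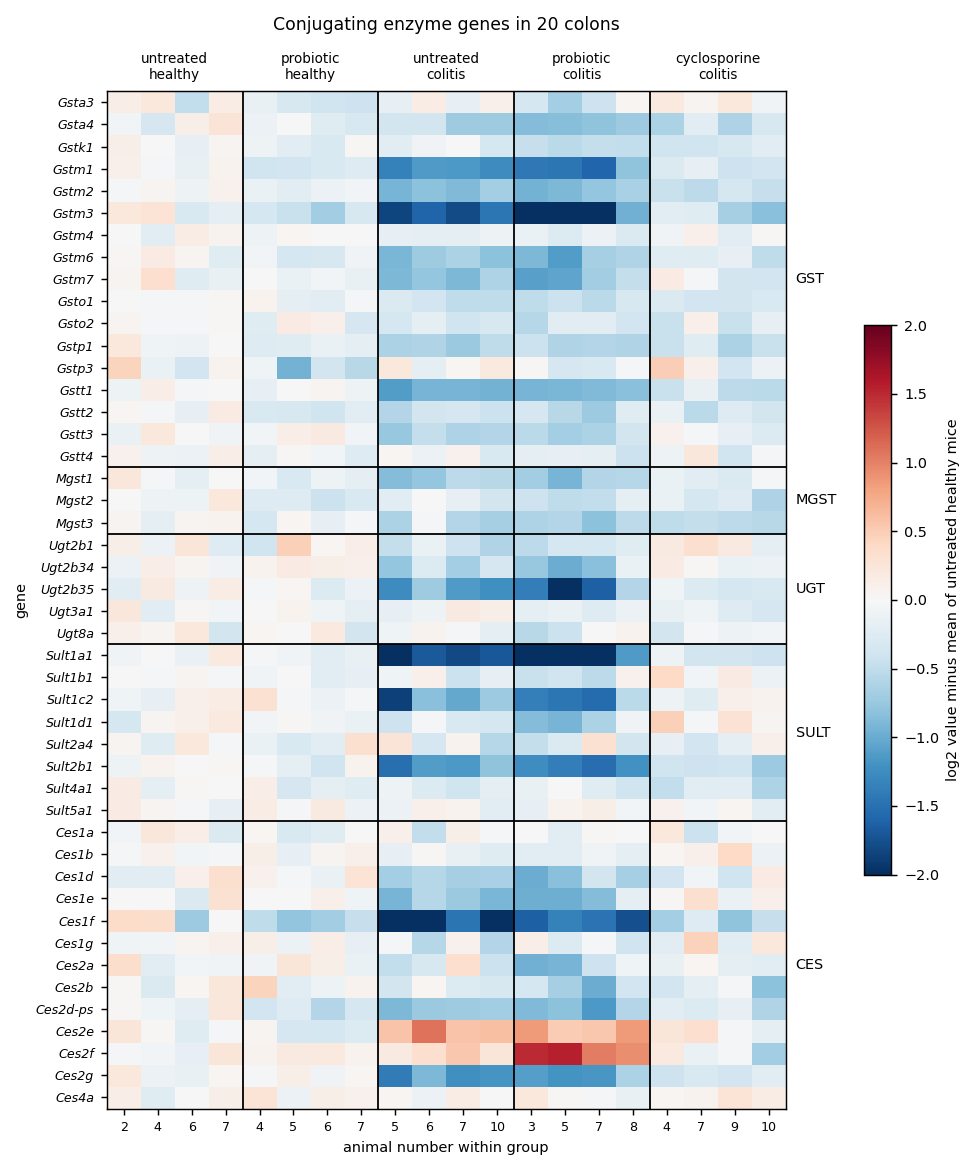
Heat map of the 46 tested members (rows, by enzyme class) in the 20 mice (columns, by group). Colour is the log2 level minus the gene's mean in the 4 untreated healthy mice, with the scale capped at 2 in either direction. The columns of both DSS groups without cyclosporine are lower for Sult1a1, Gstm3, Gstm1, Ces1f and Ces2g, and the rows of Ces2e and Ces2f run the other way.

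The mu class gave the largest drops among the glutathione transferases. Gstm3 read 9.80, 9.87, 9.28 and 9.40 in the 4 untreated healthy mice and 7.76, 7.99, 7.79 and 8.15 in the untreated colitis mice. Every colitis mouse was below every healthy one, and Gstm3 fell by 1.66 ± 0.21 (adjusted p = 2.85e-05), or 3.17-fold. Gstm1, which conjugates many electrophiles, read 9.28, 9.14, 9.03 and 9.24 in untreated healthy and 7.83, 8.04, 8.03 and 7.92 in untreated colitis mice. These groups too stood clear of each other, and Gstm1 fell by 1.22 ± 0.12 (adjusted p = 2.52e-06). Of the other mu members, Gstm2 fell by 0.83 ± 0.07 (adjusted p = 7.22e-07), Gstm7 changed by -0.80 ± 0.15 (adjusted p = 0.000582) and Gstm6 by -0.77 ± 0.12 (adjusted p = 0.000112). Gstm4 did not pass, at -0.17 ± 0.08 (adjusted p = 0.131). Gstm7, Gstm6 and Gstm3 are neighbours in the RefSeq gene order, as are Gstm2 and Gstm1.

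In the theta class, which acts on small halogenated and epoxide compounds, Gstt1 read 8.56, 8.80, 8.63 and 8.67 in untreated healthy and 7.55, 7.73, 7.74 and 7.73 in untreated colitis mice. Every colitis mouse was below every healthy one, and Gstt1 fell by 0.98 ± 0.08 (adjusted p = 3e-07), the smallest p among the members. Gstt3 changed by -0.61 ± 0.10 (adjusted p = 0.000155) and Gstt2 by -0.43 ± 0.10 (adjusted p = 0.00535), while Gstt4, dim in 1 group, had -0.08 ± 0.11 (adjusted p = 0.681). The 4 theta genes lie side by side in the order Gstt3, Gstt1, Gstt4, Gstt2. Gstt2 lost its call when the replicate number was a block.

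Gstp1, the pi class enzyme common in epithelia, read 11.56, 11.27, 11.25 and 11.34 in untreated healthy and 10.72, 10.76, 10.61 and 10.85 in untreated colitis mice. The groups did not overlap, and Gstp1 fell by 0.62 ± 0.08 (adjusted p = 4.37e-05). Its relative Gstp3 did not pass, at 0.07 ± 0.19 (adjusted p = 0.842). Gsto1, an omega class enzyme that reduces arsenicals and dehydroascorbate, read 11.15, 11.11, 11.12 and 11.16 in untreated healthy and 10.85, 10.75, 10.63 and 10.62 in untreated colitis mice, again without overlap, and its level fell by 0.42 ± 0.07 (adjusted p = 0.000367). Gsta4, which detoxifies the lipid peroxidation product hydroxynonenal, changed by -0.54 ± 0.12 (adjusted p = 0.00341). Gsta3 (-0.02 ± 0.15, adjusted p = 0.949), Gsto2 (-0.32 ± 0.12, adjusted p = 0.0604) and the mitochondrial and peroxisomal Gstk1 (-0.16 ± 0.08, adjusted p = 0.173) did not pass.

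The microsomal transferases are membrane proteins, of which Mgst1 protects membranes from lipid peroxides, and Mgst2 and Mgst3 belong to the family that makes leukotriene C4. Mgst1 read 9.74, 9.46, 9.30 and 9.51 in untreated healthy and 8.64, 8.73, 8.98 and 8.95 in untreated colitis mice, with no overlap, and its level fell by 0.68 ± 0.10 (adjusted p = 0.000119). Mgst3 read 10.18, 9.94, 10.18 and 10.19 in untreated healthy and 9.49, 10.08, 9.54 and 9.47 in untreated colitis mice. Here the groups overlapped, because colitis mouse 6 lay above healthy mouse 4, and Mgst3 fell by 0.48 ± 0.11 (adjusted p = 0.00455). Mgst2 had -0.18 ± 0.11 (adjusted p = 0.22). Mgst1 is one of 3 members with a match to the antioxidant response element. Through this site the factor NRF2 switches on detoxification genes. RefSeq gave 2 promoters for Mgst1, and the one with a match is shown, while the other had none. The letters searched were TGACNNNGC on both strands in the 250 bases before each gene's start, from RefSeq on GRCm38.p6. They matched in 10.2% of all promoters of that length and in 3 of 71 member promoters (Gsta3, Gstm7 and Mgst1). Capitals mark the match, which lies on the other strand:
Mgst1, chr6:138140277-138140526: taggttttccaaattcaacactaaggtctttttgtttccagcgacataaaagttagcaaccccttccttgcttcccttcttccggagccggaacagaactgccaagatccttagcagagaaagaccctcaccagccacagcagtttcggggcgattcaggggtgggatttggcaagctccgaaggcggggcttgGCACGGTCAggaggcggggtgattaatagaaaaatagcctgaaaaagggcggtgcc
A match is a description of letters and no evidence of binding.

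Sulfotransferases held another member with a large fall. Sult1a1 read 11.09, 11.17, 11.02 and 11.35 in untreated healthy and 9.02, 9.47, 9.35 and 9.47 in untreated colitis mice. The gap between the groups was wider than either group's whole range, and Sult1a1 fell by 1.83 ± 0.23 (adjusted p = 2.14e-05), or 3.55-fold. Sult2b1, which sulphates cholesterol and other hydroxysteroids, read 8.18, 8.33, 8.28 and 8.29 in untreated healthy and 6.77, 7.16, 7.13 and 7.47 in untreated colitis mice. Each colitis mouse was below each healthy one, and Sult2b1 fell by 1.14 ± 0.12 (adjusted p = 5.97e-06). Sult1c2 read 8.92, 8.85, 9.12 and 9.17 in untreated healthy mice and 7.15, 8.17, 7.99 and 8.28 in untreated colitis mice, where mouse 5 was lowest, and its level fell by 1.12 ± 0.21 (adjusted p = 0.000858). The other tested sulfotransferases did not pass: Sult1b1 had -0.14 ± 0.13, Sult1d1 -0.27 ± 0.16, Sult2a4 -0.15 ± 0.19, Sult4a1 -0.24 ± 0.12 and Sult5a1 -0.04 ± 0.10, with adjusted p between 0.131 and 0.806.

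Of the 11 glucuronosyltransferases 5 were tested, as the other 6 were dim, and the Ugt1a locus is not among the members because its probe sets carry several symbols. Ugt2b34 read 11.74, 11.99, 11.92 and 11.79 in untreated healthy and 11.08, 11.59, 11.18 and 11.52 in untreated colitis mice. The groups did not overlap, and Ugt2b34 fell by 0.52 ± 0.14 (adjusted p = 0.0121). Ugt2b35 read 7.16, 7.56, 7.28 and 7.53 in untreated healthy and 6.13, 6.67, 6.25 and 6.16 in untreated colitis mice, also apart, and its level fell by 1.08 ± 0.21 (adjusted p = 0.000812). Ugt2b1 (-0.41 ± 0.15, adjusted p = 0.0591), Ugt3a1 (0.01 ± 0.09, adjusted p = 0.967) and Ugt8a, which makes galactosylceramide and not drug conjugates (-0.07 ± 0.15, adjusted p = 0.787), did not pass.

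Carboxylesterases moved in both directions. Ces1f read 8.35, 8.34, 7.25 and 7.98 in untreated healthy and 5.98, 5.95, 6.53 and 5.95 in untreated colitis mice. Healthy mouse 6 was the lowest of its group and colitis mouse 7 the highest of its own, still without overlap, and Ces1f fell by 1.88 ± 0.20 (adjusted p = 3.33e-06), or 3.68-fold, the lowest change among the members tested, within 1 SE of that of Sult1a1. Its neighbours Ces1e and Ces1d changed by -0.79 ± 0.15 (adjusted p = 0.000873) and -0.64 ± 0.15 (adjusted p = 0.00327), while Ces1g (-0.28 ± 0.17, adjusted p = 0.236), Ces1b (-0.13 ± 0.09, adjusted p = 0.311) and Ces1a (-0.07 ± 0.14, adjusted p = 0.773) did not pass.

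In the Ces2 family, Ces2g read 9.02, 8.69, 8.66 and 8.84 in untreated healthy and 7.40, 7.91, 7.59 and 7.63 in untreated colitis mice, and its level fell by 1.17 ± 0.12 (adjusted p = 2.73e-06). Ces2e, 2 places before it in the gene order, read 8.59, 8.36, 8.10 and 8.32 in untreated healthy mice and 8.91, 9.43, 8.91 and 8.94 in untreated colitis mice. Every colitis mouse was above every healthy one, and Ces2e rose by 0.70 ± 0.14 (adjusted p = 0.00133), or 1.63-fold, the one member called up. Ces2f lies between them and had 0.32 ± 0.16 (adjusted p = 0.156). The pseudogene Ces2d-ps changed by -0.76 ± 0.12 (adjusted p = 0.000135), and Ces2a, Ces2b and Ces4a did not pass (-0.23, -0.23 and 0.02).

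Promoter stretches of this row of genes are shown because Ces2e rose where Ces2g fell. In the 250 bases before the start, Ces2a, Ces2e, Ces2f and Ces2g shared the run CTTTGCCC, a string picked after reading the sequences. It was in 1.44% of all RefSeq promoters of that length on either strand (473 of 32851) and in 4 of 71 member promoters. Its first letters are the reverse complement of CAAAG, a core shared by sites of the nuclear receptor HNF4A. CAAAG itself was in 48.6% of all promoters and 47 of 71 member promoters. Also searched was GCGTG, the core of aryl hydrocarbon receptor sites, found in 28.2% of all promoters and 9 of 71 member promoters. The 4 stretches, 5′ to 3′ on the plus strand of GRCm38.p6 with the shared run in capitals, are:
Ces2a, chr8:104733923-104733952: tgcaataagaaCTTTGCCCcatccaatcaa
Ces2e, chr8:104926170-104926199: ggcaatacgaaCTTTGCCCcgccctagtga
Ces2f, chr8:104947254-104947283: gaagaaaaaaaCTTTGCCCcaccccacgga
Ces2g, chr8:104961591-104961620: aaatacagcgaCTTTGCCCtgcctccaggc
The run begins 69, 79, 91 and 116 bases before the start of Ces2a, Ces2e, Ces2f and Ces2g. Ces2e and Ces2g, of which 1 rose and 1 fell, both hold it. The whole Ces2e window, with its 4 matches to CAAAG on either strand in capitals, reads:
Ces2e, chr8:104926010-104926259: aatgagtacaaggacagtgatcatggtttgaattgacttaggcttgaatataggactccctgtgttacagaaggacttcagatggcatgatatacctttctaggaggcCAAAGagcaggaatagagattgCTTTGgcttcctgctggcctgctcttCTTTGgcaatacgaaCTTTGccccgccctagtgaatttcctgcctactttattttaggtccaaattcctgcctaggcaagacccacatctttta

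**Figure D2:**
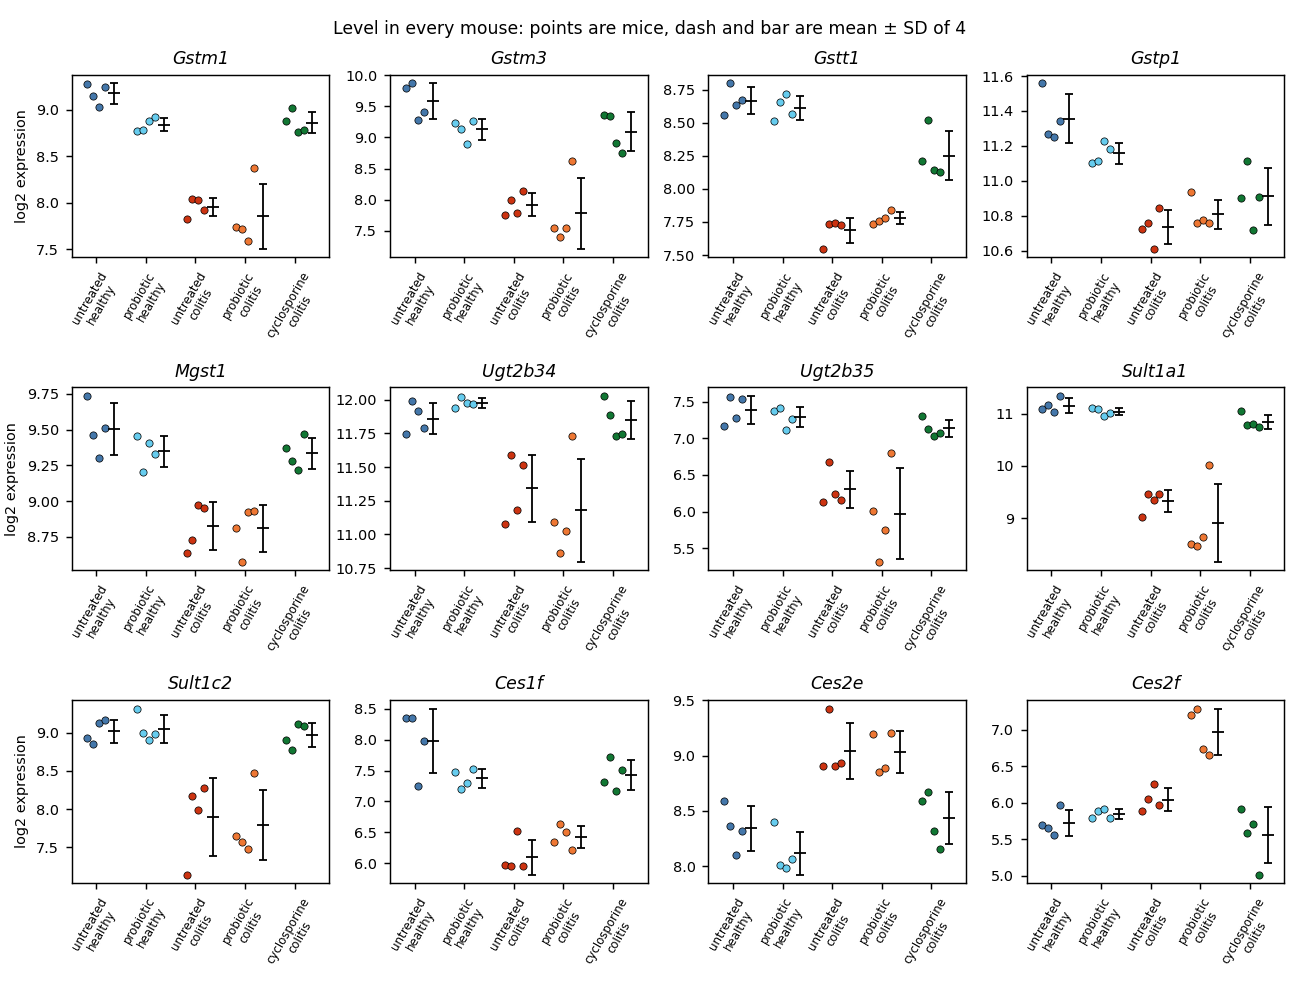
Log2 array level (y axis) of 12 members in each mouse, by group (x axis), with 4 points per group and a dash and bar for the group mean ± SD. Each panel has its own y range. Sult1a1 lies between 11.02 and 11.35 in untreated healthy mice, between 9.02 and 9.47 in untreated colitis and between 10.75 and 11.05 under cyclosporine.

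Markers of several cell types moved with these falls, and their part in the result was not tested. Of 15 colonocyte markers, 5 fell in untreated colitis and none rose, and the mean of the list lay at 11.54 to 11.89 in untreated healthy and at 11.12 to 11.43 in untreated colitis mice. The 5 were transport and carbonic anhydrase genes: Aqp8 (-1.56 ± 0.20), Car1 (-1.26 ± 0.12), Slc26a3 (-1.18 ± 0.16), Car4 (-1.03 ± 0.17) and Car2 (-0.92 ± 0.12). The other 10 did not pass, among them Epcam at -0.00 ± 0.06 and the brush border gene Vil1 at -0.05 ± 0.07. From untreated healthy to untreated colitis, the mean of Krt20 went from 12.08 to 12.18 and that of Ceacam1 from 13.50 to 13.64. Cdh17 went from 11.60 to 11.76, Slc9a3 from 8.48 to 8.36 and Guca2a from 11.33 to 10.74. The 5 called genes do not stand for the whole list. Of 12 smooth muscle markers, 11 fell (list mean 10.32 to 10.43 in untreated healthy and 9.57 to 9.93 in untreated colitis mice), while 8 of 11 neutrophil, 7 of 12 macrophage, 6 of 8 T cell and 6 of 8 B and plasma cell markers rose. Of the posterior Hox list, taken as markers of gut position, 5 of 8 were lower and none higher (median -0.68, list mean 8.18 to 8.25 in untreated healthy and 7.32 to 7.99 in untreated colitis mice). Goblet cell markers went the other way from the colonocyte list, with 5 of 10 higher and none lower. Hepatocyte markers, which would show liver tissue, had 1 of 7 tested genes lower (Ttr, -0.83 ± 0.14) and none higher.

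Lists of other genes cover the supply, removal and export of co-substrates. Their counts stand beside the 26.1% of all genes called in colitis (11.7% up, 14.4% down). For sulphate, 6 of 11 genes fell and none rose. They were Slc26a3, also a colonocyte marker above, Slc26a2 (-0.87 ± 0.16) and the PAPS synthases Papss1 (-0.59 ± 0.13) and Papss2 (-0.31 ± 0.10). The others were Arsb (-0.24 ± 0.07) and Bpnt1 (-0.33 ± 0.07). For UDP-glucuronate, Ugdh, which makes it, fell (-0.89 ± 0.14, adjusted p = 0.000135), and Gusb, which cleaves glucuronides, rose (0.70 ± 0.11, adjusted p = 0.000218), with 1 of 7 lower and 2 higher. For glutathione, 5 of 17 fell, among them the synthase Gss (-0.43 ± 0.11) and the peptidases Dpep1 (-1.07 ± 0.24) and Anpep (-0.71 ± 0.12). The cystine importer Slc7a11 rose (1.82 ± 0.35, adjusted p = 0.000946), with 3 of 17 higher in all. The rate-setting ligase subunits Gclc (-0.10 ± 0.06) and Gclm (-0.05 ± 0.10) did not pass. The medians were -0.24 for the sulphate list, -0.02 for the UDP-glucuronate list and -0.10 for the glutathione list, beside -0.03 over all genes.

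Other hydrolases fell in 6 of 10 genes with none higher (median -0.40), among them the acyl hydrolase Aadac (-1.66 ± 0.26) and the epoxide hydrolases Ephx2 (-0.91 ± 0.10) and Ephx1 (-0.66 ± 0.09). Of 7 other conjugating transferases, the histamine methyltransferase Hnmt (-0.62 ± 0.11) and As3mt (-0.37 ± 0.07) fell. A list of transporters, made of ABC pumps and the Slco carriers Slco2a1, Slco2b1 and Slco3a1, had 5 of 12 lower and 1 higher. Slco2a1 was among the lower (-0.46 ± 0.11). Abcb1a, the gene of P-glycoprotein, fell (-1.16 ± 0.19, adjusted p = 0.000247), as did the conjugate exporters Abcc2 (-0.55 ± 0.09) and Abcc3 (-0.54 ± 0.09), while Abcb1b rose (0.62 ± 0.21). The list of NRF2 regulators and targets had 3 of 18 higher (Slc7a11, Hmox1 at 0.75 ± 0.24 and Bach1 at 0.23 ± 0.07) and 2 lower (Cbr3 at -0.83 ± 0.18 and Akr1b8 at -0.71 ± 0.17). Those 5 of 18 called stand beside 26.1% of all genes, a share near that background. A well known target of NRF2, Nqo1, did not pass (0.16 ± 0.17, adjusted p = 0.546). A list of receptors that sense drugs and lipids, which also holds the non-receptor genes Arnt, Cdx2 and Tiparp, had 6 of 16 lower and 1 higher. The higher gene was Tiparp (0.47 ± 0.12, adjusted p = 0.00708). The vitamin D receptor Vdr (-0.77 ± 0.12), the pregnane receptor Nr1i2 (-0.50 ± 0.11), Nr1i3 (-0.43 ± 0.09), Ppara (-0.48 ± 0.09), Ppard (-0.45 ± 0.11) and Hnf4a (-0.25 ± 0.08) were lower, and the aryl hydrocarbon receptor Ahr did not pass (-0.09 ± 0.07).

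A second pair of groups, with no array in common with the first, asked what DSS did in mice that had the bacteria. Probiotic colitis against probiotic healthy mice had 27 of 46 members lower and 2 higher, or 63.0%, with 29.7% of all genes called (13.6% up, 16.1% down). The median was -0.45 over the members and -0.04 over all genes. By class, 11 of 17 cytosolic and 2 of 3 microsomal glutathione transferases fell, with 3 of 5 glucuronosyltransferases, 4 of 8 sulfotransferases and 7 of 13 carboxylesterases. Sult1a1 read 11.11, 11.09, 10.95 and 11.01 in probiotic healthy mice and 8.51, 8.47, 8.64 and 10.02 in probiotic colitis mice, where mouse 8 stood above its group, and its level fell by 2.13 ± 0.23 (adjusted p = 2.96e-06), or 4.38-fold. The changes were -1.35 for Gstm3, -1.32 for Ugt2b35, -1.26 for Sult1c2, -1.21 for Sult2b1 and -1.04 for Ces2g, each at an adjusted p of 0.000191 or less. Without the 3 arrays that stand apart, 28 members fell and 2 rose. Markers moved with this comparison too: 10 of 11 neutrophil, 11 of 12 macrophage, 8 of 8 T cell and 8 of 8 B and plasma cell markers rose, and 8 of 12 smooth muscle and 7 of 8 posterior Hox genes fell. Of the 15 colonocyte markers 6 fell and 2 rose. The neutrophil list mean was 5.80 to 6.51 in probiotic healthy and 6.38 to 9.19 in probiotic colitis mice, and the part of these cells in the result was not tested.

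These pairs of groups share no array, but their calls used the same spread per gene. In both pairs 22 members fell, which is 95.7% of the 23 and 81.5% of the 27. Over all genes the shares were 67.8% and 60.6%. The changes of the 46 members correlated at 0.892 across genes and those of all genes at 0.89, and genes are not independent replicates. Gstt2 fell in the saline pair alone, and Ces2a (-0.64 ± 0.19, adjusted p = 0.0136), Ces2b (-0.64 ± 0.17, adjusted p = 0.00863), Gstk1 (-0.35 ± 0.08, adjusted p = 0.00387), Sult1d1 (-0.57 ± 0.16, adjusted p = 0.0112) and Ugt2b1 (-0.42 ± 0.15, adjusted p = 0.0434) in the probiotic pair alone. The probiotic colitis mean of Ugt2b1 was 5.07, below the filter level. None of the 46 passed the test of whether the DSS change itself differed between the pairs, where 0% of all genes passed by limma and 3 members were under an unadjusted p of 0.05. Ces2a lost its call in the probiotic pair without probiotic colitis mouse 3 or 5 (adjusted p up to 0.0592), and Ugt2b1 without probiotic healthy mouse 5, 6 or 7, probiotic colitis mouse 3, 5 or 7, or cyclosporine mouse 4, as well as with the replicate number as a block.

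Ces2e and Ces2f rose under DSS in the probiotic mice. Ces2e read 8.40, 8.01, 7.99 and 8.07 in probiotic healthy and 9.20, 8.86, 8.89 and 9.20 in probiotic colitis mice, with no overlap, and its level rose by 0.92 ± 0.14 (adjusted p = 7.72e-05). Ces2f read 5.78, 5.89, 5.91 and 5.79 in probiotic healthy and 7.21, 7.28, 6.74 and 6.65 in probiotic colitis mice. Each probiotic colitis mouse was above each probiotic healthy one, and Ces2f rose by 1.12 ± 0.16 (adjusted p = 3.87e-05), or 2.18-fold. The difference of this change from the one in saline mice was 0.80 ± 0.23 (adjusted p = 0.367), with a 95% interval of 0.32 to 1.28. For Ces1f, with -0.95 ± 0.20 here and -1.88 ± 0.20 in the saline pair, that difference was 0.93 ± 0.28 (adjusted p = 0.424).

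Many conjugating enzymes read higher in mice given cyclosporine than in untreated colitis mice. Cyclosporine colitis against untreated colitis mice had 19 of 46 members higher and 1 lower, or 43.5%, with 13.2% of all genes called (7.58% up, 5.58% down). The median was 0.21 over the members and -0.01 over all genes. Higher were 7 of 17 cytosolic and 1 of 3 microsomal glutathione transferases, 3 of 5 glucuronosyltransferases, 3 of 8 sulfotransferases and 5 of 13 carboxylesterases. The groups did not overlap for 19 members, against 15% of all genes. Without the 3 arrays that stand apart, 21 rose and 1 fell. This comparison shares the untreated colitis mice with the first, so a gene that happened to read low in those mice would count in both.

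Sult1a1 read 11.05, 10.78, 10.80 and 10.75 in the 4 cyclosporine colitis mice, all above the highest untreated colitis mouse at 9.47, and its level rose by 1.52 ± 0.23 (adjusted p = 0.000364), or 2.86-fold. Ces1f read 7.31, 7.72, 7.18 and 7.51, above every untreated colitis mouse, and its level rose by 1.33 ± 0.20 (adjusted p = 0.000304). Gstm3 read 9.36, 9.35, 8.92 and 8.75 and its level rose by 1.17 ± 0.21 (adjusted p = 0.00164). Gstm1 read 8.88, 9.02, 8.76 and 8.79, with a gap to the untreated colitis mice, and its level rose by 0.91 ± 0.12 (adjusted p = 0.000149). Sult1c2 read 8.91, 8.77, 9.11 and 9.09 and its level rose by 1.07 ± 0.21 (adjusted p = 0.0031), and Sult2b1 read 7.87, 7.86, 7.87 and 7.55 and its level rose by 0.66 ± 0.12 (adjusted p = 0.00216). In each of these genes the cyclosporine and untreated colitis mice did not overlap.

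Of the Ces1 and Ces2 genes, Ces1e rose by 0.86 ± 0.15 (adjusted p = 0.00128). Ces2g read 8.38, 8.49, 8.42 and 8.59, and its level rose by 0.84 ± 0.12 (adjusted p = 0.000241). Ces1d (0.47 ± 0.15, adjusted p = 0.0375) and Ces2d-ps (0.44 ± 0.12, adjusted p = 0.017) were also called. Ces2e, the gene that was higher in colitis, read 8.59, 8.67, 8.32 and 8.16 and its level fell by 0.61 ± 0.14 (adjusted p = 0.00849). All 4 values lay below those of the untreated colitis mice. Ces2f read 5.92, 5.58, 5.70 and 5.02 and had -0.49 ± 0.16 (adjusted p = 0.0528).

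Of the glucuronosyltransferases, Ugt2b34 read 12.03, 11.89, 11.73 and 11.75 and its level rose by 0.51 ± 0.14 (adjusted p = 0.0248). Ugt2b35 read 7.30, 7.12, 7.04 and 7.07 and its level rose by 0.83 ± 0.21 (adjusted p = 0.0123). Ugt2b1 rose by 0.53 ± 0.15 (adjusted p = 0.0292), from an untreated colitis mean of 5.03, below the filter level. Among glutathione transferases, Gstt1 read 8.21, 8.52, 8.14 and 8.13 and its level rose by 0.56 ± 0.08 (adjusted p = 0.000278). Gstm7 (0.64 ± 0.15), Gstt3 (0.51 ± 0.10), Mgst1 (0.51 ± 0.10), Gstm6 (0.49 ± 0.12) and Gstm2 (0.39 ± 0.07) were higher too. The pi, omega and alpha classes did not pass: Gstp1 had 0.18 ± 0.08 (adjusted p = 0.174), Gsto1 0.08 ± 0.07 (adjusted p = 0.494) and Gsta4 0.10 ± 0.12 (adjusted p = 0.662). Mgst3 had -0.04 ± 0.11 (adjusted p = 0.87). Leaving out 1 mouse ended the calls of Ugt2b1 (6 mice, adjusted p up to 0.0929), Ces1d (5 mice, up to 0.108), Ugt2b34 (4 mice, up to 0.0813) and Ces2d-ps (2 mice, up to 0.0521). For Ugt2b1 these were untreated colitis mice 5, 7 and 10 and cyclosporine mice 4, 7 and 9, and for Ces1d untreated colitis mice 5, 7 and 10 and cyclosporine mice 7 and 10. For Ugt2b34 they were untreated colitis mice 5 and 7 and cyclosporine mice 4 and 7, and for Ces2d-ps untreated colitis mouse 5 and cyclosporine mouse 9. With the replicate number as a block, the calls of Sult2b1, Ces2d-ps and Gstm6 were lost.

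**Figure D3:**
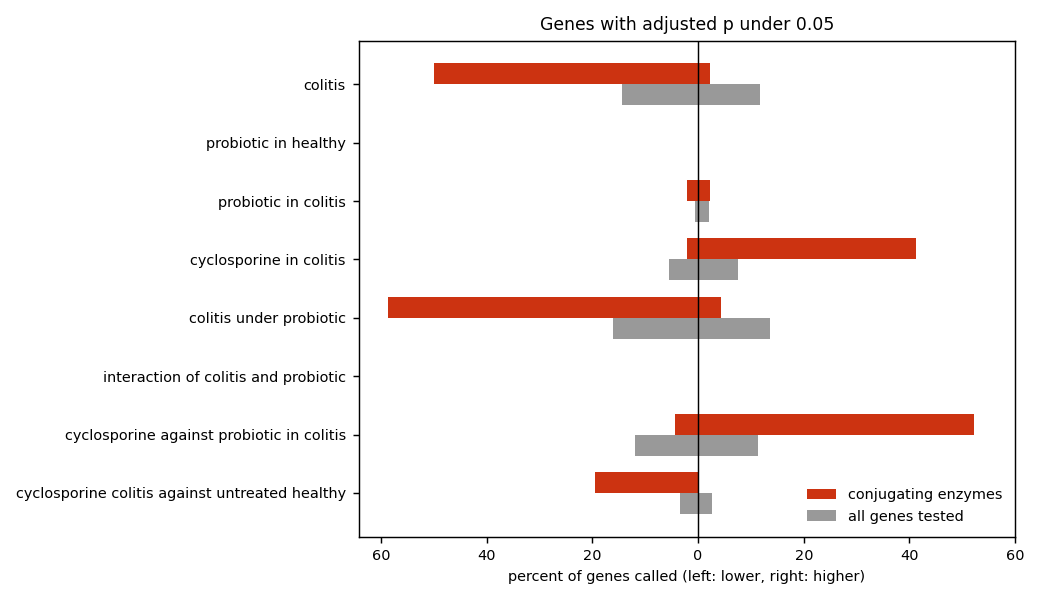
Percentage of genes called (x axis, bars from 0, lower genes to the left and higher genes to the right) in each comparison (y axis), for the 46 tested members and for all 16739 genes. Members exceed all genes for falls in colitis (23 of 46 against 14.4%) and for rises under cyclosporine (19 of 46 against 7.58%).

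Markers moved here as well. Of the 15 colonocyte markers, 5 rose under cyclosporine and none fell, with a list mean of 11.53 to 11.61. Of the 12 smooth muscle markers 10 rose, and 4 of 11 neutrophil markers fell, with a list mean of 5.87 to 6.04 in cyclosporine mice against 6.25 to 9.53 in untreated colitis mice. Of 8 posterior Hox genes 4 rose and none fell, and of 10 goblet cell markers 4 fell and none rose. Their part in the result was not tested. Of the co-substrate genes, Ugdh (0.60 ± 0.14, adjusted p = 0.00683), Papss1 (0.65 ± 0.13) and Papss2 (0.54 ± 0.10) rose, and Gusb fell (-0.72 ± 0.11, adjusted p = 0.000487). The list counts here stand beside 7.58% of all genes called up and 5.58% called down. The sulphate list had 3 of 11 higher, the UDP-glucuronate list 1 of 7 higher and 2 lower, and the glutathione list 1 of 17 in each direction. Other hydrolases had 5 of 10 higher, with Aadac at 1.19 ± 0.26, Bche at 0.81 ± 0.16 and Ephx1 at 0.56 ± 0.09. The NRF2 list had 5 of 18 lower and none higher. The receptor list had 3 of 16 higher (Vdr at 0.61 ± 0.12, Rora at 0.33 ± 0.09 and Ahr at 0.29 ± 0.07), and Nr1i2 was not called.

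Cyclosporine colitis mice were also set against untreated healthy mice. Of 46 members 9 were lower and none higher, or 19.6%, with 6.02% of all genes called (2.64% up, 3.38% down). The median was -0.17 over the members and -0.03 over all genes. The 9 were Mgst3 (-0.52 ± 0.11, adjusted p = 0.0146), Sult2b1 (-0.48 ± 0.12, adjusted p = 0.03), Gsta4 (-0.44 ± 0.12, adjusted p = 0.0416), Gstp1 (-0.44 ± 0.08, adjusted p = 0.0072), Gstm2 (-0.44 ± 0.07, adjusted p = 0.00439), Gstt1 (-0.41 ± 0.08, adjusted p = 0.00926), Sult4a1 (-0.40 ± 0.12, adjusted p = 0.048), Gsto1 (-0.34 ± 0.07, adjusted p = 0.0135) and Gstk1 (-0.34 ± 0.08, adjusted p = 0.0266). Gstp1 read 10.90, 11.12, 10.72 and 10.91 in cyclosporine mice, all below the lowest untreated healthy mouse at 11.25. Gsto1 read 10.84, 10.75, 10.76 and 10.82, and Mgst3 9.61, 9.64, 9.60 and 9.57, both likewise below. The list holds cytosolic and microsomal glutathione transferases and sulfotransferases, and no glucuronosyltransferase or carboxylesterase.

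Where no call was made, the interval shows what size could have been missed. The 95% interval of the difference between cyclosporine colitis and untreated healthy mice ran from -0.49 to 0.40 for Sult1c2, from -0.31 to 0.29 for Ugt2b34, from -0.79 to 0.17 for Sult1a1 and from -0.96 to -0.14 for Ces1f. The interval of Ces1f leaves out 0, and its adjusted p was 0.093. Without the 3 arrays that stand apart, 6 members were lower. Leaving out single mice gave 5 to 12, with 5 without untreated healthy mouse 2 or 7 and 12 without probiotic colitis mouse 8. Sult2b1 lost its call without any untreated healthy mouse or cyclosporine mouse 4 or 10, and Gstk1 without untreated healthy mouse 2 or 7 or cyclosporine mouse 4 or 7. Gsta4 lost it without any one of 9 mice and Sult4a1 without any one of 11, untreated healthy mice 2, 6 and 7, probiotic colitis mice 3 and 7 and cyclosporine mice 4 and 10 being among them for both. With the replicate number as a block, Gstm2 alone of the 9 stayed called.

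The 2 treatments were compared within colitis, which uses no array of the first comparison. Cyclosporine against probiotic colitis had 24 of 46 members higher and 2 lower, or 56.5%, with 23.2% of all genes called (11.3% up, 12% down). The median was 0.37 over the members and 0.01 over all genes. Higher were 9 of 17 cytosolic and 1 of 3 microsomal glutathione transferases, 3 of 5 glucuronosyltransferases, 5 of 8 sulfotransferases and 6 of 13 carboxylesterases. Sult1a1 was higher by 1.93 ± 0.23 (adjusted p = 3.89e-05), or 3.82-fold, Gstm3 by 1.31 ± 0.21 (adjusted p = 0.000356), Ugt2b35 by 1.16 ± 0.21 (adjusted p = 0.000632) and Gstm1 by 1.01 ± 0.12 (adjusted p = 4.58e-05). Sult1d1, a catecholamine sulfotransferase, read 11.11, 10.60, 10.93 and 10.69 under cyclosporine and 9.76, 9.71, 10.00 and 10.57 under probiotic, without overlap, and Sult1d1 was higher by 0.82 ± 0.16 (adjusted p = 0.00128). Ces2f and Ces2e were lower, at -1.41 ± 0.16 (adjusted p = 3.17e-05) and -0.60 ± 0.14 (adjusted p = 0.00496). Without the 3 arrays that stand apart, 24 were higher and 2 lower. With the replicate number as a block, the calls of Ces2e, Gstm2, Gstm6, Ces1b, Ces1d and Gsta3 between the treatments were lost. Markers differed here as well: 10 of 11 neutrophil (median -2.30), 10 of 12 macrophage (-1.03), 7 of 8 T cell and 8 of 8 B and plasma cell markers (-1.55) were lower under cyclosporine. Of 12 smooth muscle markers 8 were higher, of 15 colonocyte markers 6 and of 8 posterior Hox genes 3, and none was lower. The colonocyte list mean was 10.78 to 11.19 in probiotic colitis and 11.53 to 11.61 in cyclosporine colitis mice, and the part of these cells in the result was not tested.

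The genes lower in untreated colitis and those higher under cyclosporine than under probiotic rest on group means from separate arrays. Their calls used the same spread per gene. These lists shared 19 members, 82.6% of the 23 and 79.2% of the 24, and over all genes 45.7% and 58.3%. Gsto1, Gstp1, Gstt2 and Mgst3 were in the first list alone, and Ces1b, Gsta3, Sult1b1, Sult1d1 and Ugt2b1 in the second alone. The changes correlated at -0.835 over the 46 members and at -0.799 over all genes. In the other such pairing, all 19 members that rose under cyclosporine against untreated colitis were among the 27 that fell in probiotic colitis against probiotic healthy mice (70.4% of the 27), where for all genes the shares were 70.7% and 33.3%. The calls of Ces1b, Gsta3, Gsta4, Sult1b1 and Ugt2b1 between the treatments ended without any one of 5 or 6 mice each, and probiotic colitis mice 3 and 5 were among them for each gene.

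**Figure D4:**
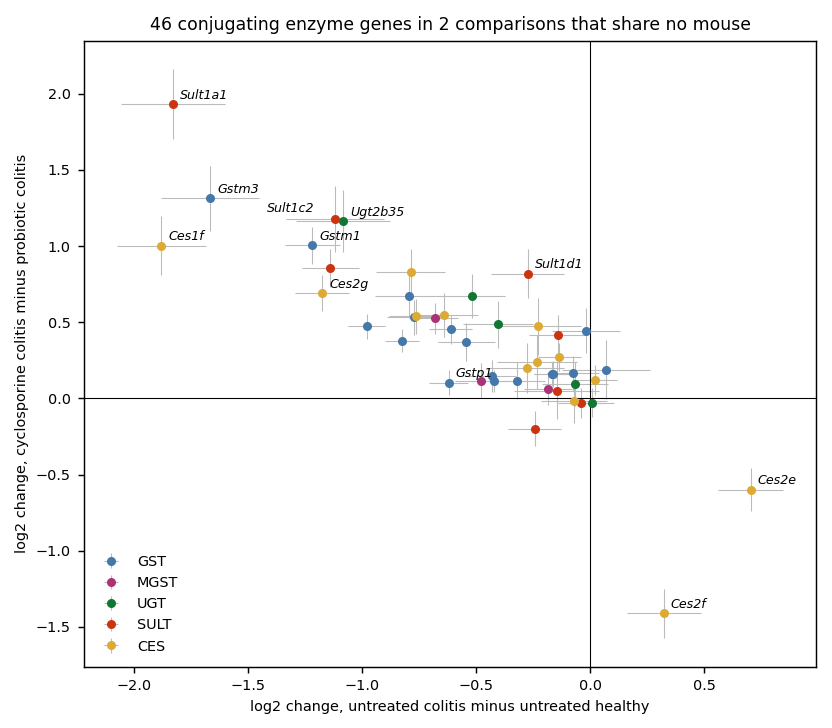
Log2 change of each of the 46 tested members in untreated colitis against untreated healthy mice (x axis) and in cyclosporine against probiotic colitis mice (y axis), which share no mouse. Each point is 1 gene, coloured by enzyme class, with bars of 1 SE. Genes lower on the x axis lie higher on the y axis (correlation -0.835 across genes), with Sult1a1 at one end and Ces2e and Ces2f at the other.

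The bacteria alone changed no member by the test. Probiotic against untreated healthy mice had 0 of 46 members called by limma, with 0% of all genes called, and 9 members at an unadjusted p under 0.05. The median was -0.10 over the members and -0.01 over all genes. For 6 members the 2 groups did not overlap, and probiotic mice were the lower in each, against 2.98% of all genes that were lower without overlap. These were Gstm3 (-0.45 ± 0.21), Ces2d-ps (-0.39 ± 0.12), Gstm1 (-0.34 ± 0.12), Gstt2 (-0.31 ± 0.10), Mgst2 (-0.31 ± 0.11) and Gstp1 (-0.20 ± 0.08). Gstm1 read 8.77, 8.78, 8.88 and 8.92 in probiotic healthy mice, below the lowest untreated healthy mouse at 9.03. None had an adjusted p under 0.05. Without the 3 arrays that stand apart, 0 members were called here and 0 in the difference between the DSS changes.

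In colitis, the bacteria went with 2 called members. Probiotic against untreated colitis had Ces2f higher and Gstk1 lower, or 4.35% of the 46, with 2.8% of all genes called (2.13% up, 0.669% down). The median was -0.05 over the members and -0.02 over all genes. Ces2f read 5.89, 6.05, 6.25 and 5.97 in untreated colitis and 7.21, 7.28, 6.74 and 6.65 in probiotic colitis mice, without overlap, and its level rose by 0.93 ± 0.16 (adjusted p = 0.007), or 1.9-fold. The call was lost with the 2 groups fitted alone and with the replicate number as a block, and held without each single mouse (adjusted p up to 0.0365). Gstk1 read 9.51, 9.68, 9.73 and 9.40 in untreated and 9.28, 9.20, 9.26 and 9.25 in probiotic colitis mice, and its level fell by 0.33 ± 0.08 (adjusted p = 0.0399). That call was lost with the replicate number as a block, with the 2 groups fitted alone and with no filter. It was also lost, with an adjusted p of up to 0.154, without untreated healthy mouse 4 or 7, untreated colitis mouse 6 or 7, probiotic healthy mouse 4 or 5, or probiotic colitis mouse 3, 5 or 7. Leaving out probiotic colitis mouse 8 raised the number of called members to 6, and leaving out the 3 arrays that stand apart gave 3, which are Ces2f and 2 lower sulfotransferases and not Gstk1. Of the related genes, Abcb1a (-0.82 ± 0.19, adjusted p = 0.0302) and Slc26a2 (-0.71 ± 0.16, adjusted p = 0.0244) were lower in probiotic than in untreated colitis. The peptidase Anpep was higher (0.75 ± 0.12, adjusted p = 0.00465). Each was the 1 gene called in its list, of 12 transporters, 11 sulphate genes and 17 glutathione genes. In these mice 9 of 12 macrophage markers were higher, and their part in the result was not tested.

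Single mice often held the same rank across members. Of the 27 members that fell in probiotic colitis, probiotic colitis mouse 8 was the highest of its group in 22, with a mean level of 8.20 against 7.73 to 7.81 in the other 3. Of the 23 that fell in untreated colitis, mouse 5 was the lowest of its group in 17, and mouse 6 was the highest in 10 and the lowest in none. Among untreated healthy mice, mouse 6 was the lowest in 12 of the 23. Of the 19 members that rose under cyclosporine, mouse 10 was the lowest of its group in 9 and mouse 9 in 7. These ranks were taken over members chosen by the same arrays and are a description.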

How the data were processed

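The 20 arrays measured biotin-labelled total RNA of mid colon. The authors deposited log2 expression values per probe set, made with RMA (background correction, quantile normalization and summary), per the submitters' processing notes. The sources used here name no RMA software or version. Symbols came from the platform annotation: 22360 probe sets had 1 symbol, 1013 several and 5822 none. Each gene was read from the probe set with the highest mean. Genes above the 25th percentile (5.30) on at least 4 arrays were kept, and 16739 were fitted with limma 3.58.1 in R 4.3.3 over all 5 groups (lmFit, contrasts, eBayes, 15 residual degrees of freedom), with Benjamini-Hochberg adjustment over all genes. The fit was tested on simulated data. The number of arrays limits the precision.

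The 8 comparisons are named in the text. The members and gene lists were chosen with earlier results of these data known. The rule named, in each comparison, up to 12 called members with the largest and 12 with the smallest change, and allowed every tested member by its level. Of each pathway list it named up to 4 genes with the smallest p. Further called members, pathway genes and marker genes were named for their role after their values were seen. Labels share mouse numbers between groups, and the deviations of 20 same-numbered pairs correlated at -0.185 to 0.433 (median 0.0218), with 5 over 0.1. Between untreated and probiotic colitis, both such pairs were positive (mouse 5 at 0.248, mouse 7 at 0.433). Mouse numbers were taken to name mice within a group, so the main setting has no block, and the block is an alternative. Alternatives tried were no filter and a stricter one, other scalings, array weights, robust fits, the mean of probe sets, a replicate block, the compared groups alone, a stricter threshold, and leaving out single mice or the 3 arrays that stand apart. Promoters came from the RefSeq table (GRCm38.p6), which held 59 member genes. Probe sets with several symbols entered no test.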

Additional observations from a re-analysis of the deposited data

Results flagged for a closer look

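Of 230 sets of 4 mice (46 members in 5 groups), 16 had 1 mouse far from the other 3 by Dixon's criterion, which chance alone gives in about 1 of 20 sets. Probiotic colitis mouse 8 was such a mouse in Sult1a1 (10.02, others 8.47 to 8.64), Gstm3 (8.62, others 7.40 to 7.55), Ces2g (8.17, others 7.61 to 7.70), Ces1e (6.52, others 5.74 to 5.85) and, on the low side, Gstt4 (5.07, others 5.32 to 5.35). Other probiotic colitis mice stood out in Ces1b (mouse 7, 6.18) and Gstp1 (mouse 3, 10.93).

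In untreated colitis, mouse 6 was high in Mgst3 (10.08, others 9.47 to 9.54) and Ces2e (9.43, others 8.91 to 8.94), mouse 7 was high in Ces1f (6.53, others 5.95 to 5.98), and mouse 5 was low in Gstt1 (7.55, others 7.73 to 7.74). In untreated healthy mice, mouse 6 was low in Gsta3 (5.91, others 6.53 to 6.60) and high in Sult1b1 (9.80, others 9.73 to 9.74), and mouse 4 was low in Mgst3 (9.94, others 10.18 to 10.19). In cyclosporine colitis, mouse 4 was high in Sult1a1 (11.05) and mouse 10 low in Sult2b1 (7.55).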

How the results depend on the processing

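Of 125 changes of named or called members, recomputed under the alternatives (3856 values), none turned its direction and 139 values fell short of the threshold that the main value had passed. The number of called members without single mice was 24 to 25 in colitis, 0 to 0 for the bacteria in healthy mice, 1 to 6 for the bacteria in colitis, 16 to 22 for cyclosporine in colitis, 27 to 30 for colitis under probiotic, 0 to 0 for the difference between the DSS changes, 21 to 27 for cyclosporine against probiotic and 5 to 12 for cyclosporine colitis against untreated healthy mice. For the bacteria in colitis the count of 2 became 1 with no filter, 4 with array weights, 1 with a replicate block, 0 with the compared groups alone and 1 at an adjusted p under 0.01. For cyclosporine colitis against untreated healthy mice the 9 became 1 with a replicate block, 5 with the compared groups alone and 3 at an adjusted p under 0.01. The cause was not tested. With the replicate block the other counts were 23 in colitis, 17 for cyclosporine in colitis, 28 for colitis under probiotic, 20 for cyclosporine against probiotic, and 0 in the remaining ones. Other scalings kept the direction of every call named and moved the median of all genes by less than 0.1. Over all genes, the bacteria in colitis gave 468 calls, and 325 with no filter, 1682 with array weights, 219 with the replicate block and 0 with the compared groups alone.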

Other observations

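Probe sets that carry several symbols were kept out of the members, and 6 with values begin with a symbol of these families. The levels below are group means ± SD (n = 4), with no test. The main Ugt1a probe set, shared by 8 symbols of that locus and so reading the bilirubin and phenol glucuronosyltransferases together, was at 7.36 ± 0.04 in untreated healthy, 7.16 ± 0.10 in probiotic healthy, 6.91 ± 0.18 in untreated colitis, 6.64 ± 0.15 in probiotic colitis and 7.13 ± 0.09 in cyclosporine colitis mice. A second Ugt1a probe set was at 7.54 ± 0.27, 7.38 ± 0.10, 7.14 ± 0.25, 6.85 ± 0.15 and 7.41 ± 0.12 in the same order. For the main one, the highest untreated colitis mouse (7.05) was below the lowest untreated healthy mouse (7.32), while for the second the groups overlapped.

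Gstz1, the zeta class enzyme of tyrosine breakdown, shares its probe set with Pomt2. That probe set was at 8.64 ± 0.10 in untreated healthy, 8.67 ± 0.07 in probiotic healthy, 8.08 ± 0.18 in untreated colitis, 8.13 ± 0.15 in probiotic colitis and 8.55 ± 0.16 in cyclosporine colitis mice. The highest untreated colitis mouse (8.33) was below the lowest untreated healthy mouse (8.56). The probe set of Gstm5 and a second transcript was at 8.43 ± 0.17 in untreated healthy, 8.03 ± 0.07 in probiotic healthy, 8.08 ± 0.17 in untreated colitis, 7.98 ± 0.07 in probiotic colitis and 8.11 ± 0.16 in cyclosporine colitis mice. The joint probe sets of Ugt2a1 with Ugt2a2 and of Gsta1 with Gsta2 were dim, with group means of 4.47 to 4.61 and 3.40 to 3.61.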
